A study of Rattus norvegicus with 9 samples.

Results

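The 3p arms of the let-7 precursors were followed in the serum of 6 male Sprague-Dawley (SD) rats with pulmonary artery banding (PAB) and of 3 male SD rats with a sham operation, taken 4 weeks after the surgery, which was done on young animals. All rats were wild type, and each serum gave a small RNA library that was sequenced as single reads. PAB ties a fixed ring around the pulmonary artery, so that the right ventricle has to pump against a narrowed vessel, and the sham rats show the serum after surgery without the band. The comparison asks which serum miRNAs differ once the right ventricle has been loaded. Members were the rows of the deposited table whose name begins with rno-let-7 and ends in -3p, and 7 of the 276 listed miRNAs matched: rno-let-7a-1-3p, rno-let-7c-1-3p, rno-let-7c-2-3p, rno-let-7d-3p, rno-let-7e-3p, rno-let-7f-1-3p and rno-let-7i-3p, written without the species prefix rno below. Every listed miRNA had at least 1 read in some library, so the presence of reads took part in the choice of members.

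A let-7 gene is transcribed as a hairpin, and Dicer cuts the stem into a duplex of a 5p and a 3p strand. An Argonaute protein usually keeps the 5p strand, the let-7 miRNA itself, which represses growth genes and is held back in stem cells by LIN28, while the 3p strand is in most cases discarded. A miRNA finds its targets mainly through its seed, bases 2 to 8, so that the 2 strands of a hairpin address different messenger RNAs.

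RefSeq (rat assembly GRCr8) held a mature sequence for 6 of the 7 members. They are shown because their seeds set them apart from the 5p arms and, in part, from each other. Capitals mark the seed.
let-7d-3p: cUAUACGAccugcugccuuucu
let-7e-3p: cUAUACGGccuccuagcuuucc
let-7f-1-3p: cUAUACAAucuauugccuucc
let-7a-1-3p: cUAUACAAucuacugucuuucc
let-7c-2-3p: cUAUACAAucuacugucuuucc
let-7i-3p: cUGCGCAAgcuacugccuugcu
These 6 entries had 4 seeds. UAUACAA was shared by let-7a-1-3p, let-7c-2-3p and let-7f-1-3p, and let-7d-3p, let-7e-3p and let-7i-3p each had a seed that no other listed miRNA with a RefSeq sequence carried. let-7a-1-3p and let-7c-2-3p were identical in all 22 bases, so reads of the mature strand cannot be told apart between them. let-7d-3p and let-7e-3p were identical at 17 of 22 positions and had their first 7 bases in common. By contrast, the 9 listed 5p members, miR-98-5p included, all had the seed GAGGUAG, as in these examples from the same hairpins.
let-7d-5p: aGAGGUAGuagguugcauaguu
let-7e-5p: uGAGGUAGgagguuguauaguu
let-7f-5p: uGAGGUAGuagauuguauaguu

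The let-7d hairpin is printed whole, with its 5p and its 3p arm in capitals, because it was the main source of let-7 3p reads. It lies on the plus strand of chromosome 17 (GRCr8, chr17:16322260-16322357), and together with the let-7a-1 and let-7f-1 hairpins it fills 2225 bases.
let-7d hairpin: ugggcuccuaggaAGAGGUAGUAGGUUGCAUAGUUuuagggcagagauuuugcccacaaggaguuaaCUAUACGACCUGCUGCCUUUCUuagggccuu

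The 9 libraries held 19477 to 64455 miRNA reads in the PAB group and 56231 to 65313 in the sham group. The authors' RPM values relate these reads to totals of about 12630000 to 19250000 reads per library. Sham library 2 stood apart by listing the most miRNAs with reads, 217, against 81 to 131 in the PAB group and 129 and 173 in the other sham libraries. Summed over 5 of 7 red blood cell miRNAs found in the table, miR-144-3p and miR-144-5p being unmatched, the level was 74.8 to 215 RPM in the PAB group and 93.5 to 119 RPM in the sham group. The 4 platelet miRNAs summed to 114 to 1112 RPM in the PAB group and 749 to 1497 RPM in the sham group. In the edgeR fit given below, miR-223-3p of the platelet list had a log2FC (PAB against sham) of 7.61. miR-191a-5p, miR-126a-3p and miR-21-5p were at −0.79, −0.70 and −0.42. Of the red blood cell list, miR-486, miR-16-5p, miR-451-5p and miR-92a-3p were at 6.77, 3.49, 1.54 and 0.13, and miR-25-3p at −3.86. No member of either list passed the thresholds used. The ranges of the groups overlapped for both lists, as for the lymphocyte, liver and muscle lists. The part of these cells in any result was not tested.

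let-7d-3p (rno-let-7d-3p) made up 95.8% of the 19981 reads of the 7 members. By mean share it was the sixth most abundant miRNA of the serum, at 4.06% of miRNA reads. let-7d-3p had 1, 2971, 1277, 5097, 2743 and 551 reads in PAB libraries 1 to 6, against 2793, 1605 and 2110 reads in sham libraries 1 to 3. In RPM, this was 0.052, 190, 82.5, 333, 143 and 42.9 in the PAB group, against 221, 95.9 and 124 in the sham group. PAB libraries 2 to 6 thus spanned the range of the sham group, with PAB library 4 above it and PAB libraries 3 and 6 below it, and PAB library 1 was nearly empty of this miRNA. The mean was 132 ± 120 RPM in the PAB group (SD, n = 6) and 147 ± 65.7 RPM in the sham group (SD, n = 3).

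The level of let-7d-3p did not differ between the groups beyond the spread between rats, and the sign of the difference changed with the scale. With TMM normalization, which scales libraries by a trimmed mean of ratios, the log2FC (PAB against sham) was 0.64 with a standard error of 1.30 (quasi-likelihood test of edgeR, adjusted p = 0.894). With library totals taken from RPM it was −0.16. On the log2(RPM + 0.1) scale, the mean was 5.36 ± 4.09 in the PAB group (SD, n = 6) and 7.11 ± 0.62 in the sham group (SD, n = 3), so that PAB minus sham was −1.75 (two-sided exact permutation over 84 splits, p = 0.619). Without PAB library 1 this difference was −0.13 (exact permutation test, p = 0.857).

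**Figure D1:**
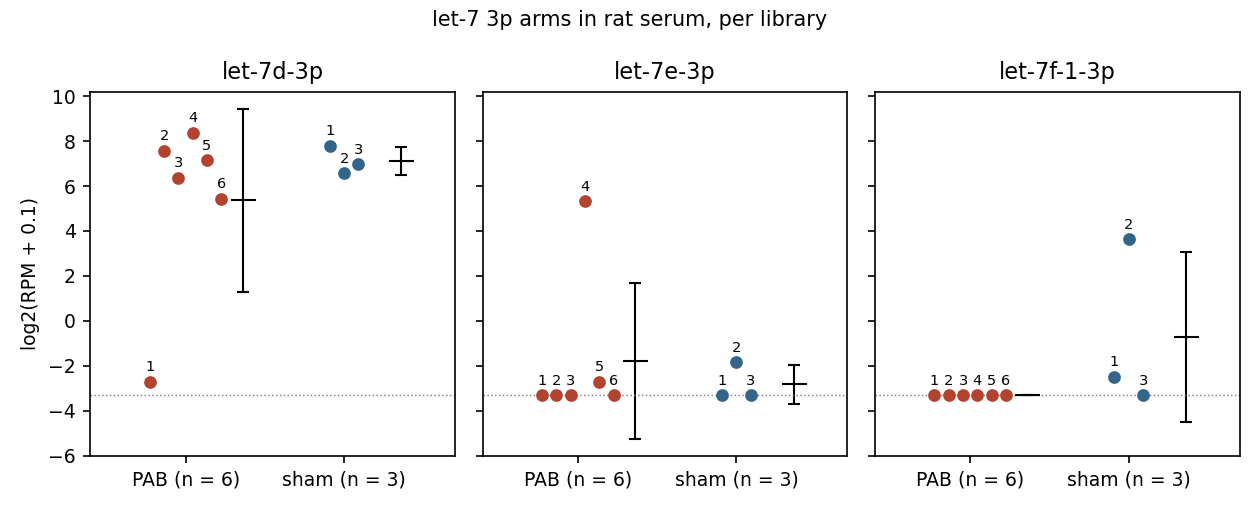
Level of the 3 let-7 3p arms with the most reads, as log2(RPM + 0.1), in each PAB and sham library, with library numbers at the points, the mean ± SD at the right of each group, and a dotted line at 0 RPM. let-7d-3p was present in all 9 libraries, while let-7e-3p was high in PAB library 4 alone and let-7f-1-3p in sham library 2 alone.

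PAB library 1 had the fewest miRNA reads, 19477, which were also the smallest part of its total implied by RPM (0.101%, against 0.171% to 0.412% in the other PAB libraries and 0.332% to 0.517% in the sham libraries). Its 1 read of let-7d-3p gave a share with a 95% exact binomial interval of 0.00013% to 0.0286%, against a lowest share of 1.85% in the other libraries, in PAB library 6. The part of the low miRNA content in this was not tested. let-7d-5p was also low there, with 3 reads, whereas let-7a-5p and let-7f-5p, which come in part from the same chromosome 17 cluster, had 224 and 269 reads. The miRNA whose pattern over the 9 libraries was most like that of let-7d-3p was miR-24-3p, a miRNA of many cell types, with a mean absolute difference of 1.20 between the centred log2(TMM CPM + 1) values, where CPM is the count scaled to the miRNA reads of the library, against a median of 3.76 over the tested miRNAs. miR-24-3p had 5 reads in PAB library 1, against 551 to 3520 in the other PAB libraries and 773 to 9349 in the sham libraries. A miRNA predicted by the authors (1.30) and let-7g-5p (1.86) followed. In PAB library 1 the predicted miRNA also had 1 read, while let-7g-5p had 295 reads.

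In let-7d the 3p arm was the more abundant. Over all libraries the 3p arm had 19148 reads and the 5p arm 3222, so that 85.6% of let-7d reads were 3p, with a mean over libraries of 76.9 ± 26.7% (SD, n = 9). let-7e had a higher pooled 3p share, 90.2%, which rests on the 610 reads of PAB library 4. For let-7a, let-7c and let-7i the 3p arms had 10, 2 and 1 reads in all, against 7653, 24506 and 6564 reads of the 5p arms. The table lists both arms under a shared name for 37 precursors, of which 19 had more than 50% of their reads on the 3p arm, and let-7d had the most reads of these 19, ahead of miR-23a (99.98% on the 3p arm) and miR-27a (99.7%).

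The arms of let-7d did not keep a fixed ratio from rat to rat. let-7d-5p had 3, 338, 327, 2, 1714 and 627 reads in PAB libraries 1 to 6, against 51, 151 and 9 reads in sham libraries 1 to 3. The 3p share of let-7d reads was therefore 25%, 89.8%, 79.6%, 99.96%, 61.5% and 46.8% in PAB libraries 1 to 6, against 98.2%, 91.4% and 99.6% in sham libraries 1 to 3. In 5 of the 6 PAB libraries the share lay below the lowest sham value, and in PAB library 4 it lay above the highest, so the groups overlapped. The 25% of PAB library 1 rests on 4 reads and has a 95% exact interval of 0.631% to 80.6%. The intervals of PAB library 2 (88.7% to 90.8%), PAB library 3 (77.6% to 81.6%), PAB library 5 (60.1% to 63.0%) and PAB library 6 (43.9% to 49.7%) were narrower, and those of all 5 libraries lay below the lowest sham value. That value, of sham library 2, had an interval of 90.0% to 92.7%, which overlapped the interval of PAB library 2. These intervals cover counting error only.

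The mean 3p share was 67.1 ± 28.2% in the PAB group (SD, n = 6) and 96.4 ± 4.38% in the sham group (SD, n = 3), a difference of −29.3 percentage points that did not pass the test (exact permutation, two-sided, 84 splits, p = 0.155). The share holds let-7d-5p, which was among the candidates picked on these same libraries. None of the tests of the share is therefore independent of that choice. Over the 5 PAB libraries with at least 50 let-7d reads the mean was 75.5 ± 21.4% (SD, n = 5) and the difference −20.9 percentage points (exact permutation test over 56 splits, p = 0.196). This cut was chosen after the data were seen and is the same as leaving out PAB library 1. With each library left out in turn, the difference was −35.9 to −20.9 percentage points (exact permutation test, p of 0.0536 to 0.25). The −35.9 and the p of 0.0536 came without PAB library 4, the only PAB library above the sham values. As the share of the summed reads of a group, which gives deep libraries more weight, it was 80.8% in the PAB group and 96.9% in the sham group, a difference of −16.1 percentage points with no test, chosen after the data were seen. The 5p arm had a mean of 30.2 ± 34.1 RPM in the PAB group (SD, n = 6) and 4.53 ± 4.27 RPM in the sham group (SD, n = 3), but in PAB libraries 1 and 4 it was at 0.156 and 0.131 RPM, below every sham library. Which arm sets the ratio was not tested.

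**Figure D2:**
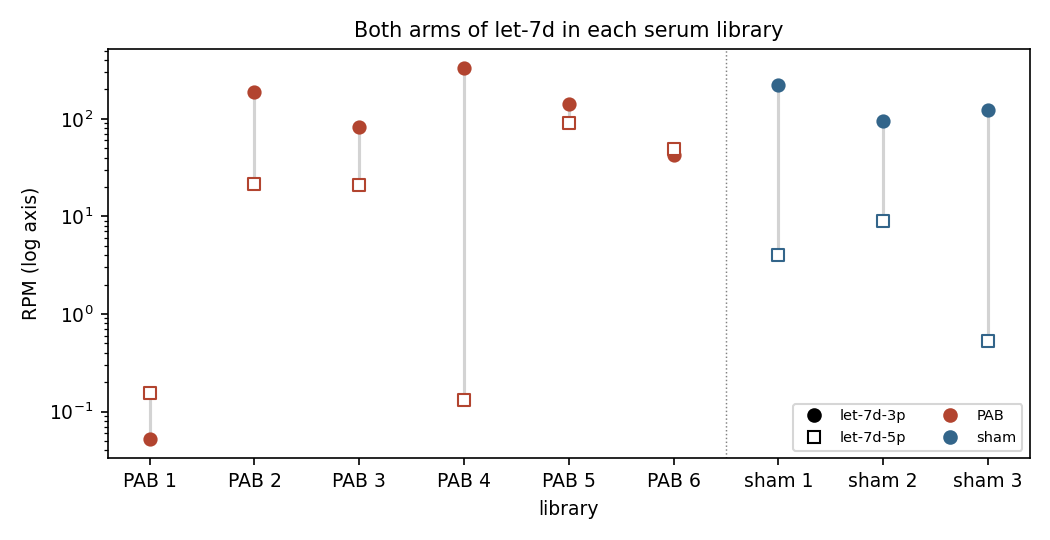
RPM of let-7d-3p (filled circles) and let-7d-5p (open squares) on a log axis in each PAB and sham library, joined by a line within a library. The 3p arm lay far above the 5p arm in the 3 sham libraries and in PAB libraries 2 and 4, with the widest gap in PAB library 4. In PAB libraries 5 and 6 the arms came close together, and in PAB library 1 both arms were near the level of a single read.

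**Figure D3:**
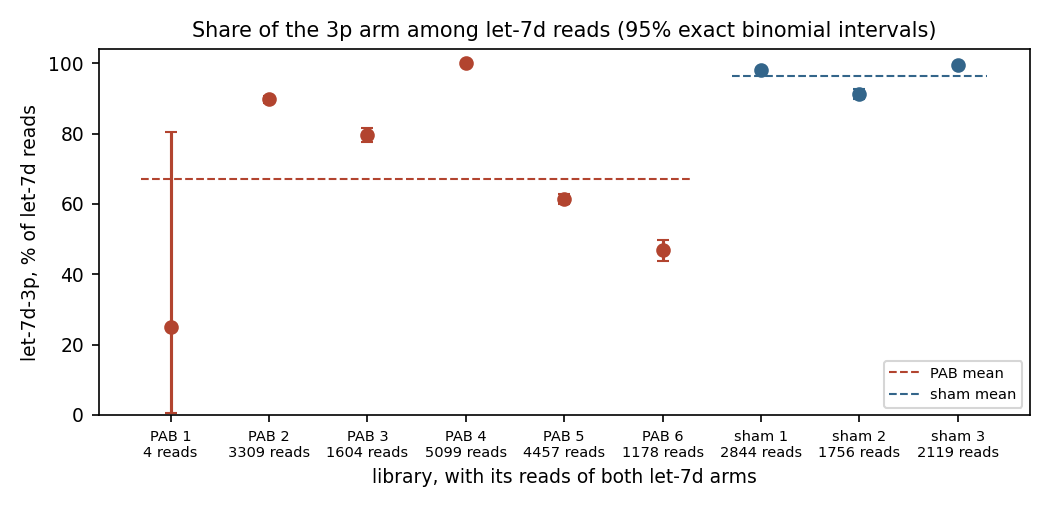
Percentage of let-7d reads on the 3p arm in each PAB and sham library, with 95% exact binomial intervals, which cover counting error only, and dashed lines at the group means of 67.1% and 96.4%. PAB library 1 rests on 4 reads, and PAB library 4, at 99.96%, was above all sham libraries.

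let-7e-3p (rno-let-7e-3p) was the member with the next most reads, and nearly all of them came from a single rat. Of its 614 reads, 610 were in PAB library 4 and 1 in PAB library 5, with none in the other 4 rats of the group, against 3 reads in sham library 2 and 0 reads in sham libraries 1 and 3. In RPM, PAB library 4 was at 39.8 and PAB library 5 at 0.052, against 0.179 in sham library 2. The mean was 6.64 ± 16.3 RPM in the PAB group (SD, n = 6) and 0.0597 ± 0.103 RPM in the sham group (SD, n = 3), and the first of these means rests on PAB library 4. The log2FC was 7.72 with a standard error of 4.03 (edgeR, adjusted p = 0.345), and without PAB library 4, PAB library 5 or sham library 2, let-7e-3p had reads in too few libraries to be tested. Reads were present in 2 of 6 PAB libraries and 1 of 3 sham libraries (Fisher's exact two-sided test, p = 1).

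The other products of the let-7e locus did not follow let-7e-3p in PAB library 4. The let-7e hairpin (GRCr8, chr1:67350229-67350321, plus strand) sits between those of miR-99b and miR-125a, all 3 within 696 bases, and it is shown with its arms in capitals because the reads changed arm between libraries.
let-7e hairpin: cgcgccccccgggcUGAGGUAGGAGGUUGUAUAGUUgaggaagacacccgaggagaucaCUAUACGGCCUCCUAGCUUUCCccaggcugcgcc
let-7e-5p had 1, 1, 0, 0, 0 and 5 reads in PAB libraries 1 to 6, against 20, 39 and 1 reads in sham libraries 1 to 3. The 5p and 3p arms thus peaked in different libraries, with 0 of 610 let-7e reads on the 5p arm in PAB library 4, against 39 of 42 in sham library 2. Of its neighbours, chosen by position, miR-99b-5p had 2 reads in PAB library 4, against 2 to 553 in the other PAB libraries and 168 to 1157 in the sham libraries. miR-125a-5p had 2 reads in PAB library 4, against 0 to 9 in the other PAB libraries and 10 to 68 in the sham libraries. The tested miRNA most like let-7e-3p in pattern was another predicted miRNA, at a mean absolute difference of 1.89 (median over the tested miRNAs, 3.95), which had no more than 3 reads in any library. miR-28-3p (2.64) and miR-181a-5p (2.72) followed. Neither shared the peak in PAB library 4. miR-28-3p had 1 read there and its most, 7, in sham library 2. miR-181a-5p had 688 reads there and its most, 1513, in PAB library 2.

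let-7f-1-3p (rno-let-7f-1-3p) was read in the sham group alone, again mostly in a single rat. It had 0 reads in all 6 PAB libraries, against 1, 205 and 0 reads in sham libraries 1 to 3. Its mean in the sham group was 4.11 ± 7.05 RPM (SD, n = 3), at least 134-fold higher than what 3 counts in the whole PAB group would give (0.0307 RPM), and this mean rests on sham library 2, without which the sham group has 1 read and no fold can be given. Reads in 0 of 6 PAB libraries and 2 of 3 sham libraries gave p = 0.0833 in Fisher's exact two-sided test, the smallest p these numbers allow. The miRNA was below the filter of reads in at least 3 libraries. With no filter, where edgeR called 11 of the 276 miRNAs (3.99%), of which 10 were lower in the PAB group (3.62%), let-7f-1-3p was among them (log2FC −7.80, standard error 2.17, adjusted p = 0.0247), and without sham library 2 it was not (log2FC −1.61, adjusted p = 0.6). With 1 library left out, the call was kept in 2 of 9 fits, those without sham library 3 or without PAB library 6, and the adjusted p from edgeR was 0.000308 to 0.6.

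let-7f-5p was present in every library, with 269, 260, 312, 537, 995 and 238 reads in PAB libraries 1 to 6, against 448, 858 and 20 reads in sham libraries 1 to 3. The 3p share of let-7f reads was therefore 0% in each PAB library, with 0 of 2611 reads in all, which allows a share of up to 0.115%, against 0.223%, 19.3% and 0% in sham libraries 1 to 3. let-7f-5p is cut from the let-7f-1 and the let-7f-2 hairpin alike, so the share cannot be given for let-7f-1 alone. Another listed miRNA, miR-3596d, comes from the opposite strand of the let-7f-1 hairpin, is the reverse complement of bases in let-7f-5p, and has the seed of let-7f-1-3p.
miR-3596d: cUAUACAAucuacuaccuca
It shares its first 12 bases with let-7f-1-3p and had 1, 0, 0, 1, 491 and 2 reads in PAB libraries 1 to 6, against 1, 250 and 0 reads in sham libraries 1 to 3. The sham group thus had its miR-3596d and let-7f-1-3p reads in the same 2 libraries, while the 491 reads of PAB library 5 came with 0 reads of let-7f-1-3p. How the counting treated strand and shared starts is not given in the sources used here, so both counts are uncertain to that extent.

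The other 4 members were at the limit of detection. let-7a-1-3p had 0 reads in all 6 PAB libraries, against 3, 7 and 0 reads in sham libraries 1 to 3, a sham mean of 0.219 ± 0.210 RPM (SD, n = 3) that was at least 7.12-fold higher than the same 3 counts. Without sham library 2 the sham group has 3 reads left, which is the floor itself, and no fold can be given. let-7c-1-3p and let-7c-2-3p had 1 read each, both in sham library 2, and let-7i-3p had 1 read, in sham library 3. let-7a-1-3p and let-7c-2-3p have the same mature sequence, so the split of reads between these 2 rows rests on a counting rule not given. The fold for let-7a-1-3p and the counts of members take the rows as listed. In total, 5 of the 7 members had 0 reads in all 6 PAB libraries, as had 83 of the 276 listed miRNAs (30.1%). Of the 83, 62 had reads in sham library 2, and so had 4 of the 5 members. let-7a-1-3p and let-7f-1-3p were also 2 of the 29 listed miRNAs (10.5%) with reads in at least 2 sham libraries and in 0 PAB libraries. The part of the larger number of miRNAs in sham library 2 was not tested. In serum, fewer cells that release a miRNA and less of it per cell cannot be told apart.

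Of the 2 members that could be tested, let-7d-3p and let-7e-3p, 0 were called at an adjusted p ≤ 0.05 and |log2FC| ≥ 1, where edgeR called 2 of all 162 tested miRNAs (1.23%). At an unadjusted p, let-7d-3p was at 0.624 and let-7e-3p at 0.0673. DESeq2, which called 13 of the 162 (8.02%), gave let-7d-3p a log2FC of 1.48 (adjusted p = 0.519) and let-7e-3p one of 9.70 with no adjusted p given. Among the 9 listed 5p members, 8 had log2FC above 0 and 0 were called, with a median of 2.29. Of all 162 tested miRNAs, 76 were above 0 and the median was −0.15. This count depends on the scaling: with the totals implied by RPM, 6 of the 9 were above 0 (median 0.55), against 45 of all 162 (median −1.54), and by RPM 6 of the 9 had the higher mean and 4 of the 9 the higher median in the PAB group. The highest of the 9 was let-7d-5p at 4.44 (standard error 2.51, edgeR adjusted p = 0.351), and the lowest was let-7e-5p at −2.07 (standard error 1.20, edgeR adjusted p = 0.356). The estimates of the 2 arms thus lay on different sides within let-7e, and for let-7d the 5p estimate was the larger. The difference between arms was tested for let-7d alone, by the 3p share given above.

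**Figure D4:**
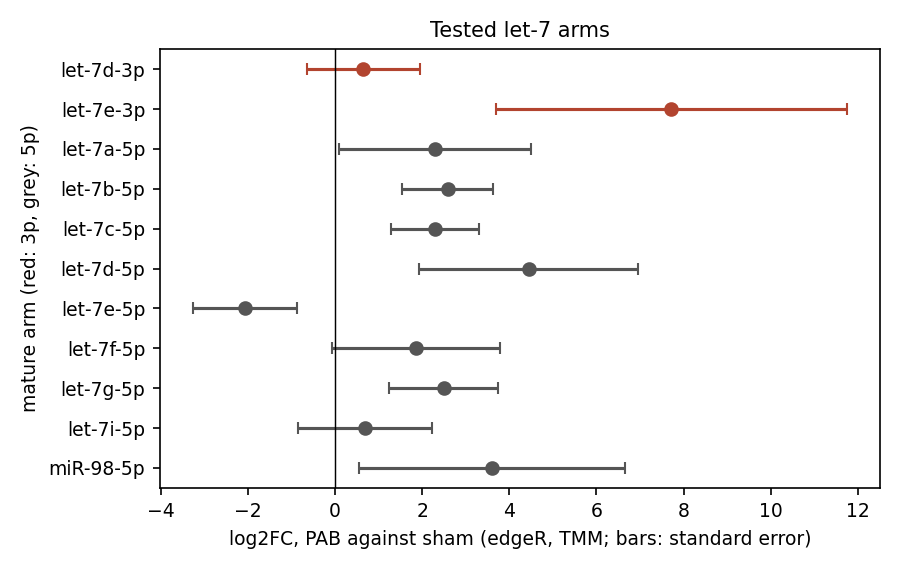
Log2FC, PAB against sham, of the 2 tested 3p arms (red) and the 9 tested 5p arms of the let-7 family (grey), from edgeR with TMM normalization, with standard errors as bars. let-7d-3p lay near 0 at 0.64, let-7e-3p had the widest bar, and 8 of the 9 5p arms lay above 0 (6 of the 9 with the totals implied by RPM).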

How the data were processed

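Small RNA of serum from 6 PAB and 3 sham rats was analysed, with 1 library for each rat. A deposited table gives whole read counts, not normalized, and RPM for 276 mature miRNAs, 58 of them predicted. The authors' RPM divides the count by a library total that is not in the table, and that was taken here as count over RPM, summed over miRNAs above 200 reads. The authors' methods name Bowtie 2.2.5 and Rnor_6.0, while the submitters' notes name Bowtie2 2.2.9, DESeq2 and GRCh38.p13. The counting rule is not given in the sources used here. miRNA reads were 19477 to 65313 per library, so intervals and floors (3 counts over a group) cover counting error only, since no molecular identifiers are named.

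Counts of the 162 miRNAs above 0 in at least 3 of 9 libraries entered edgeR 4.0.16 under R 4.3.3 (TMM, quasi-likelihood, Benjamini-Hochberg). Calls needed an adjusted p ≤ 0.05 with |log2FC| ≥ 1. Standard errors are log2FC over the square root of F. RPM (pseudocount 0.1) and arm shares were compared by exact permutation tests, and detection by Fisher's exact test, in Python 3.11.15 with scipy 1.17.1. Intervals are 95% Clopper-Pearson. The fit was tested on simulated data, where at a dispersion like that of these libraries edgeR recovered almost none of the changed miRNAs and DESeq2 a minority, so a miRNA that was not called is not shown to be unchanged. Alternatives were DESeq2 1.42.0, other normalizations and filters, pseudocounts, the library number as a block, and leaving out each library. Named beside the members were their 5p arms, the 3 tested miRNAs with the smallest mean absolute difference of centred log2(TMM CPM + 1), the highest and lowest 5p member, and the 3 precursors with the most reads among those over 50% on the 3p arm. miR-3596d and the neighbours of let-7e were added by sequence and position after the values were seen. Of the 276 names, 196 matched RefSeq sequences (GRCr8). Members and lists were chosen with earlier results of these data known.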

Additional observations from a re-analysis of the deposited data

Results flagged for a closer look

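If values are normally distributed, chance sets about 1 in 20 groups apart by the gap test used here, which was applied to the PAB group of 6 libraries. let-7d-3p was set apart in PAB library 1, where log2(RPM + 0.1) was −2.72, because the gap to the next library took 0.734 of the range of the group. On the RPM scale the same library was not set apart (0.129 of the range). let-7e-3p was set apart in PAB library 4, where it was at 39.8 RPM, with a gap of 0.999 of the range. The other PAB libraries had 0 reads or 1 read of it, so these values were not normally distributed and that rate does not hold for them. Of the 108 listed miRNAs with 100 reads or more, 18 (16.7%) had over 99% of their reads in 1 library, and let-7e-3p and let-7f-1-3p are 2 of them.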

How the results depend on the processing

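The log2FC of let-7d-3p stayed uncalled in all 17 other fits and changed sign in 3 of them, to −0.16 with the library totals implied by RPM, −0.23 when at least 10 reads were asked for in 3 libraries, and −0.86 with the replicate block over libraries 1 to 3 (0.02 in the same libraries without the block). With 1 library left out it was 0.24 to 1.53. Same-numbered libraries did not deviate together (correlations of −0.12, −0.36 and 0.04), but these are too few values to exclude a pairing by number. The difference of let-7d-3p in mean log2(RPM + 0.1) was −2.35 to −0.13 with 1 library left out. The share of let-7d-3p in miRNA reads differed by 0.84 percentage points, the other way (4.34% in PAB, 3.50% in sham). The difference in the 3p share of let-7d was −35.9 to −20.9 percentage points with 1 library left out, and none of the settings with a test passed it (exact permutation p of 0.0536 to 0.31). As shares of summed reads it was −16.1 percentage points, with no test. let-7e-3p had a log2FC of 6.60 to 9.70 in the other settings and 7.21 to 8.91 in the 6 fits with 1 library left out that could test it. It was not called in any of them, but the 9.70 came from DESeq2, which gave no adjusted p and so could not call it. let-7e-3p could not be fitted with at least 10 reads in 3 libraries or over libraries 1 to 3. let-7f-1-3p, fitted only with no filter (−7.80), had −8.16 to −1.61 with 1 library left out, an alternative chosen after the data were seen, and was called in 2 of these 9. The count of called miRNAs was 2, against 13 with DESeq2, 6 with summed reads in place of TMM, 23 with totals implied by RPM, 11 with no filter, and 0 with DESeq2 size factors, with the stricter filter, and over libraries 1 to 3 with or without the replicate block. With 1 library left out it was 0 to 2. The cause was not tested.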
